A study of Mus musculus with 8 samples.

Results

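Transcripts of 10 genes that coat, fuse or help to form lipid droplets were followed in epididymal white fat of male mice: the perilipins Plin1, Plin2, Plin3, Plin4 and Plin5, the CIDE genes Cidea and Cidec, the endoplasmic reticulum genes Fitm2 (FIT2) and Bscl2 (seipin), and Hilpda. They were taken by gene name from the authors' table of 28295 genes, and all 10 were found. The KO group (4 libraries) carried AdipoQ-Cre, a Cre recombinase under the control of an adipocyte promoter, together with floxed alleles of Cul3 (Cul3-flox/flox), the gene of the ubiquitin ligase scaffold cullin 3. The WT group (4 libraries) carried the same floxed Cul3 alleles without Cre, so it was not a wild type at that locus. Mice of both groups had 8 weeks of Western diet and a 6 h fast before the fat was taken. The labels give no age and do not say how many animals went into a library, so the p-values measure the spread between libraries. The promoter is active in adipocytes, while RNA came from whole fat, which also holds vessel, stromal and immune cells.

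A lipid droplet is a core of triglyceride and sterol ester under a single layer of phospholipid. It buds from the endoplasmic reticulum, where seipin marks the sites of budding and FIT2 keeps the membrane in order, and it is then dressed by proteins that decide how fast the core is hydrolysed. In white adipocytes perilipin 1 holds the lipase cofactor ABHD5 at the droplet until the cell is stimulated, and CIDEC passes lipid from small to large droplets, which gives the single large droplet of a white fat cell. Perilipin 5 is the coat protein of cells that burn much fat, such as those of heart, muscle and brown fat, where it ties droplets to mitochondria.

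The labels of the libraries were first set against the targeted gene. Cul3 had 10.6, 11.2, 13.2 and 13.0 FPKM (fragments per kilobase per 1000000 mapped fragments) in KO1 to KO4, against 11.4, 9.66, 12.4 and 11.5 FPKM in WT1 to WT4. The groups overlapped, with an exact two-sided permutation p of 0.429. The log2 fold change of Cul3 was 0.09 ± 0.10 (adjusted p = 0.520), and 0.37 (adjusted p = 0.0477) when libraries were scaled to a common sum. That scaling moved the median over all genes from -0.02 to 0.24. Relative to the median, Cul3 was 0.12 before it and 0.13 after it. A value per gene cannot separate floxed exons from the others. Since Cul3 was not lower, the libraries are called KO-labelled, and each direction below rests on the labels. Depth was 15.2 to 18.7 M reads in listed genes in the KO-labelled libraries and 17.7 to 19.7 M in WT (M, 1000000 reads recovered from the FPKM steps). Some libraries stood apart. Summed over 10 hepatocyte markers, WT2 had 807 FPKM and WT1 had 298 FPKM, against 81.0 to 190.0 FPKM in the other WT and 50.8 to 178 FPKM in the KO-labelled libraries. Summed over 9 epididymis and testis markers, KO1 had 273 FPKM, mostly Crisp1, against at most 74.3 FPKM in any other library, and no member of that list was called. Summed over 12 macrophage markers, WT4 had 1489 FPKM against 537 to 628 FPKM in the other WT libraries, and KO4 had 733 FPKM against 1228 to 1699 FPKM in the other KO-labelled libraries. The tissue label was borne out by the adipocyte markers, none of which was at 0 in a library, with summed levels of 3755 to 5164 FPKM in KO-labelled fat and 4921 to 7669 FPKM in WT fat.

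The 4 stretches of upstream DNA below are of genes picked for their results or for a motif. Cidec had the smallest p of the 10, and Plin4 and Plin5 lie next to each other and moved in opposite directions. Plin2, which was not called, is shown because it carries the same motif as Plin5. The letters are RefSeq's (build GRCm38.p6), read 5′ to 3′ on the strand of the gene, and run from 250 bases before the first RefSeq start to the edge of the gene as annotated in RefSeq and GENCODE. All 4 genes lie on the minus strand. Capitals mark the half-site bound by nuclear receptors such as the PPARs, AGGTCA, or its reverse complement.
Cidec, chr6:113435761-113436010: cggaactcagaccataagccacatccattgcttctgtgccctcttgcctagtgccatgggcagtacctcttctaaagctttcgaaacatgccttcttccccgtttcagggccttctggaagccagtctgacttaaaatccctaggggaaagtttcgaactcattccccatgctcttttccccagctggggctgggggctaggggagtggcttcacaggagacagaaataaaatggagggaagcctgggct
Plin4, chr17:56109949-56110032: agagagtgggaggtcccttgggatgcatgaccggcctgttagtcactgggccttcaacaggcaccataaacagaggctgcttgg
Plin5, chr17:56117607-56117798: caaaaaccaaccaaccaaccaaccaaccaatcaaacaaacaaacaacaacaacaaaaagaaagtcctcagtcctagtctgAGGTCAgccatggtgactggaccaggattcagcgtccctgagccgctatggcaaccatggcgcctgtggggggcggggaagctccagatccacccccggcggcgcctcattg
Plin2, chr4:86670218-86670309: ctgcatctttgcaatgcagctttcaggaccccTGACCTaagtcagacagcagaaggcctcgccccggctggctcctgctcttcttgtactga

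Windows of 300 bases, from 250 before to 50 after each RefSeq start, were available for 9 of the 10 genes, with 14 starts in all. Searched on both strands, AGGTCA was found in 4 of these 14 windows, those of Plin2, both starts of Plin5 and the second start of Bscl2, while 16.3% of 32851 mouse promoter windows hold it. The core of the antioxidant response element used by NRF2, TGACNNNGC, was in 0 of the 14 windows and in 12.4% of all. The core of the hypoxia response element, ACGTG, was in the windows of Plin2 and of the second start of Hilpda, and in 19.6% of all. In Plin2 the matches on the 2 strands overlapped. These are letter matches in a short window and mark no binding site.

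Of the 10 droplet genes, 5 were lower in KO-labelled fat (Cidec, Cidea, Plin4, Bscl2 and Plin1), 1 was higher (Plin5) and 4 did not pass the test (Plin2, Plin3, Hilpda and Fitm2). Over all 14400 genes tested, 18.6% were lower and 11.7% higher (30.4% in all, 2683 and 1689 genes) at the same threshold, an adjusted p under 0.05 by limma on log2(FPKM + 0.5). With libraries scaled to a common sum, 1190 genes were lower and 4226 higher. Log2 fold changes below are of FPKM + 0.5, KO-labelled over WT, with the libraries as deposited unless said, and are followed by limma's standard error. The median of the 10 log2 fold changes was -0.53, beside -0.02 for all genes tested. All 10 passed the filter of a mean of 0.5 FPKM, but Cidea did so only through the WT libraries. The FPKM ranges of the groups were apart for 6 of the 10 genes, lower for Cidec, Cidea, Plin4, Bscl2 and Plin2 and higher for Plin5, where 31.2% of all genes tested had groups apart (19.1% lower and 12.1% higher).

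**Figure D1:**
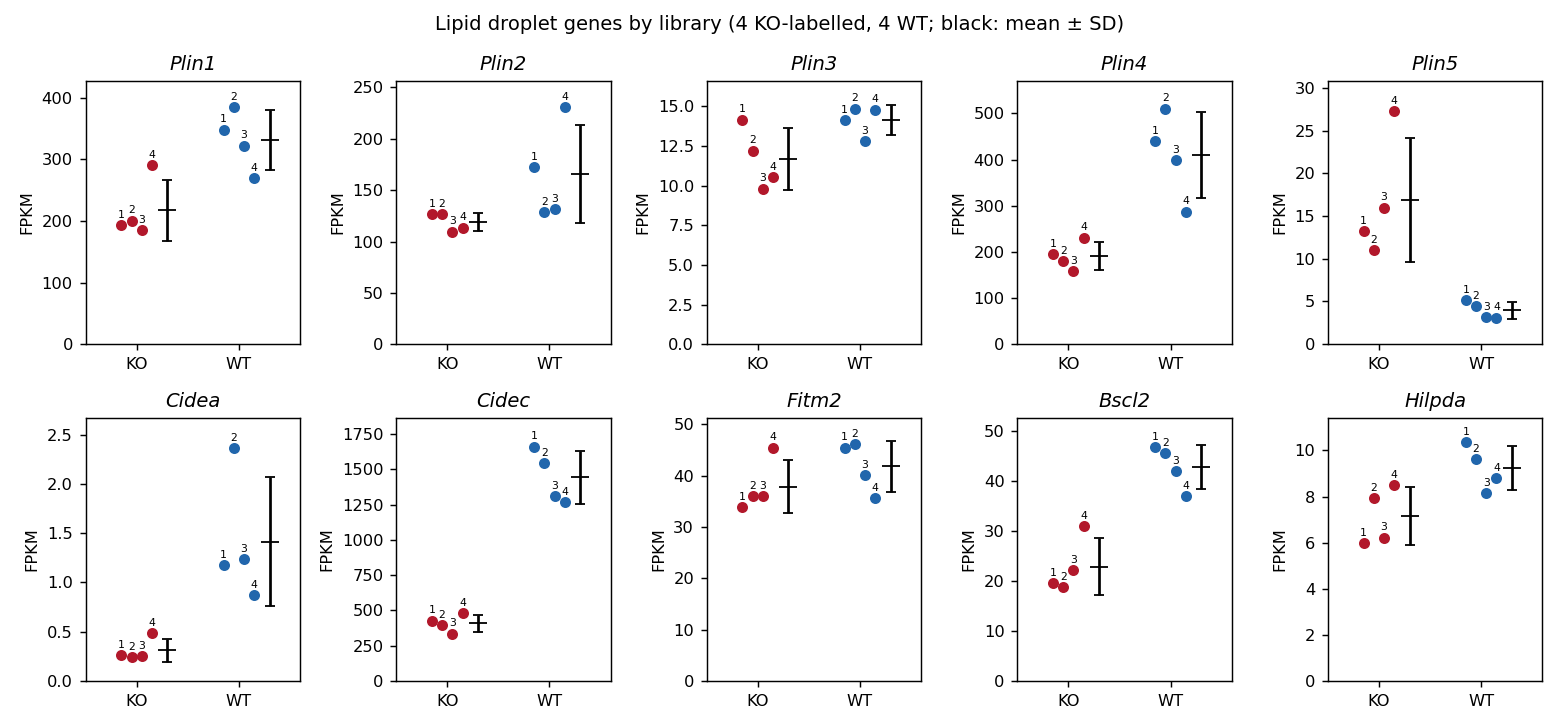
FPKM of each droplet gene (y axis, from 0) in the 4 KO-labelled libraries (red) and the 4 WT libraries (blue), numbered by replicate, with the mean and SD in black. Cidec lies at 336 to 480 FPKM in the KO-labelled libraries and at 1267 to 1662 FPKM in WT, and Plin5 at 11.0 to 27.3 FPKM against 3.12 to 5.17 FPKM.

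**Figure D2:**
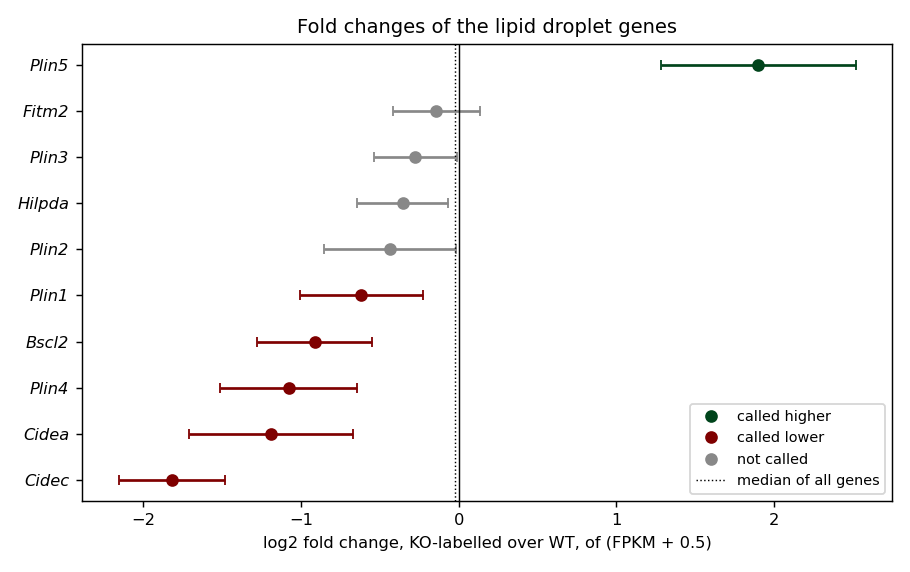
Log2 fold change of (FPKM + 0.5), KO-labelled over WT (x axis), with its 95% interval for each droplet gene. Plin5 stands at 1.90, while the other 9 estimates lie between -1.82 (Cidec) and -0.14 (Fitm2).

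Both CIDE genes fell. Cidec (ENSMUSG00000030278, chromosome 6, 113424634 to 113435760), whose product drives droplet fusion in white fat, had 428, 395, 336 and 480.2 FPKM in KO1 to KO4, against 1662, 1542, 1310.1 and 1267 FPKM in WT1 to WT4. Every KO-labelled library was below every WT library, and the lowest WT value was over the highest KO-labelled one by a wide gap. The mean was 409.8 ± 60.5 FPKM in KO-labelled fat and 1445 ± 188 FPKM in WT (SD, n = 4 each), with a log2 fold change of -1.82 ± 0.15 (adjusted p = 0.000109). Only 0.736% of genes tested had a smaller p. Cidec was the most abundant of the 10 transcripts in both groups. Within a library Cidec stood at 1.65 to 2.21 times the FPKM of Plin1 in KO-labelled fat and at 4.01 to 4.77 times in WT. Against Adipoq, the adiponectin transcript of the same cells, it stood at 1.12 to 1.47 times in KO-labelled fat and at 2.07 to 2.80 times in WT. Scaling each library by a single factor leaves these ratios as they are, while quantile normalization is not such a scaling.

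Cidea (ENSMUSG00000024526, chromosome 18, 67343604 to 67367785), a CIDE protein known from brown fat and lactating mammary gland, was the rarest of the 10. It had 0.265, 0.245, 0.248 and 0.486 FPKM in KO1 to KO4, against 1.18, 2.37, 1.24 and 0.874 FPKM in WT1 to WT4. In reads this was 9, 7, 7 and 14 against 35, 66, 33 and 25, where the length of 1164 bases was fitted, since the reference length of 1115 gave no whole reads. The groups did not overlap, and the log2 fold change was -1.19 ± 0.23 (adjusted p = 0.00568). The added 0.5 FPKM is larger than the KO-labelled values, and with 0.1 in its place the log2 fold change was -1.83. Mean FPKM in WT was 4.54 times that in KO-labelled fat. Brown fat markers were low in the same tissue: Ucp1, the uncoupling protein of brown fat, averaged 0.0157 FPKM in KO-labelled and 0.00638 FPKM in WT fat. Of the 7 brown fat markers analysed here, 3 were under the filter, Cox8b (-2.19 ± 0.32, adjusted p = 0.00164) and Otop1 (-1.60 ± 0.19, adjusted p = 0.000597) fell, Ppargc1a rose and Cox7a1 did not pass. Otop1 passed the filter only through the WT libraries and Ppargc1a only through the KO-labelled ones. Their summed level was 4.05 to 8.02 FPKM in KO-labelled fat and 13.7 to 27.5 FPKM in WT, and their part in the fall of Cidea was not tested. A noncoding gene on the other strand, B430212C06Rik, lies over Cidea without sharing exon bases, and averaged 0.643 FPKM in KO-labelled and 2.49 FPKM in WT fat.

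Among the perilipins, Plin5 and Plin4 went opposite ways. Plin5 (ENSMUSG00000011305, chromosome 17, 56111601 to 56117596) had 13.2, 11.0, 16.0 and 27.3 FPKM in KO1 to KO4, against 5.17, 4.46, 3.18 and 3.12 FPKM in WT1 to WT4. The groups were apart, and KO4 was the highest library by far. The mean was 16.9 ± 7.24 FPKM in KO-labelled and 3.98 ± 1.01 FPKM in WT fat, a ratio of 4.24, with a log2 fold change of 1.90 ± 0.27 (adjusted p = 0.00145). Without KO4 it was 1.65 (adjusted p = 0.00120). Plin4 (ENSMUSG00000002831, chromosome 17, 56100591 to 56109803), a coat protein of small and nascent droplets that is abundant in white fat, had 195, 181, 158 and 231 FPKM in KO1 to KO4, against 440.1, 510.4, 399 and 287 FPKM in WT1 to WT4. These groups were apart as well, with WT4 the closest to the KO-labelled range. Its log2 fold change was -1.08 ± 0.19 (adjusted p = 0.00387).

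Plin4 and Plin5 lie on the same strand with 1797 bases between them, and Plin3 lies within the same stretch of 192 kb. Of the 11 tested genes that run from Hdgfl2, beside Plin4, to Plin3, Plin5 was the 1 called higher. Plin4, Lrg1 and Fem1a were called lower. Lrg1, which encodes a secreted glycoprotein, ends 2081 bases upstream of Plin5 on the same strand and averaged 269 FPKM in KO-labelled and 468 FPKM in WT fat (-0.78, adjusted p = 0.00650). The genes on either side of Plin5 were thus lower where Plin5 was higher.

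**Figure D3:**
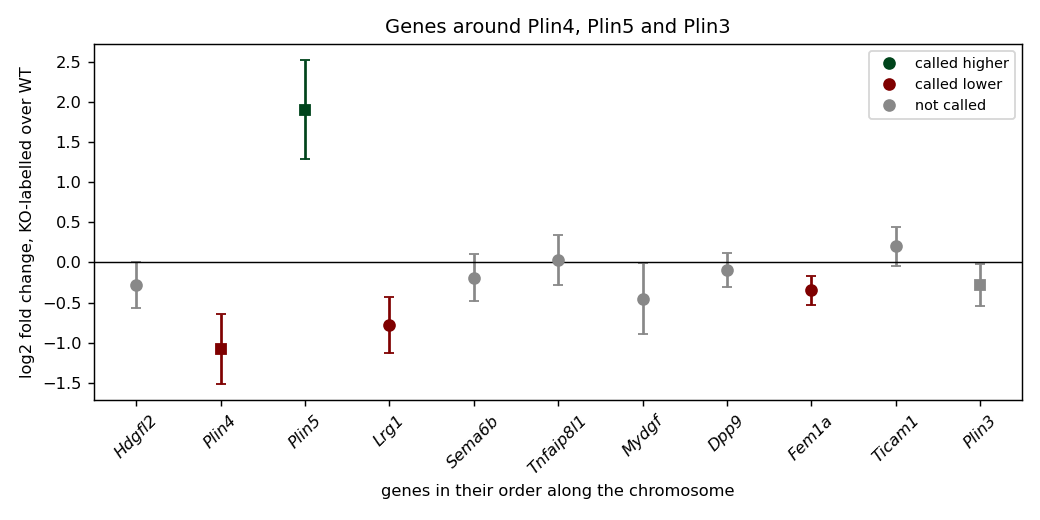
Log2 fold change, KO-labelled over WT, with 95% interval (y axis), of the 11 tested genes around the 3 perilipin genes of chromosome 17, in their order along the chromosome (x axis, not to scale). Squares are perilipin genes, and Plin5 at 1.90 stands between Plin4 at -1.08 and Lrg1 at -0.78.

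Plin1 (ENSMUSG00000030546, chromosome 7, 79720218 to 79732903), the gatekeeper of lipolysis in white fat, had 194, 201, 185 and 291 FPKM in KO1 to KO4, against 348, 385, 322 and 269 FPKM in WT1 to WT4. Here the groups overlapped, since KO4 was above WT4. The mean was 218 ± 49.4 FPKM in KO-labelled and 331 ± 48.6 FPKM in WT fat, and the log2 fold change was -0.62 ± 0.17 (adjusted p = 0.0265). This call was not stable: without any 1 of KO1, KO2, KO3, WT1, WT2 or WT3 the adjusted p was 0.0536 to 0.0764, and without both WT1 and WT2 it was 0.205. Without both KO4 and WT4 the log2 fold change was -0.86 (adjusted p = 0.00114). Relative to Adipoq in the same library, Plin1 stood at 0.618 to 0.776 times in KO-labelled fat and at 0.503 to 0.595 times in WT.

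Plin2 (ENSMUSG00000028494, chromosome 4, 86648386 to 86670060), the coat protein found on droplets of nearly all cells, macrophages included, had 126, 126, 109.5 and 114 FPKM in KO1 to KO4, against 172, 128, 132 and 231 FPKM in WT1 to WT4. The KO-labelled values lay just under the WT values, and WT4 was the highest library. The log2 fold change of -0.44 ± 0.18 did not pass (adjusted p = 0.104), with a 95% interval of -0.86 to -0.02. It was -0.26 without WT4 (adjusted p = 0.152), -0.16 with libraries scaled to a common sum and -0.18 with quantile normalization. WT4 was also the WT library with the highest macrophage markers, at 1489 FPKM as a sum, and their part in its Plin2 level was not tested. Of the 12 macrophage markers, 5 rose in KO-labelled fat (Fcgr1, Cd14, Mrc1, C1qb and Ptprc) and none fell, while 1 of 8 markers of lipid-associated macrophages fell (Ctsd, a lysosomal protease, -0.98 ± 0.15) and none rose. Markers of lipid-associated macrophages summed to 357 to 517 FPKM in KO-labelled fat and 497 to 971 FPKM in WT, highest in WT4. Plin3 (ENSMUSG00000024197, chromosome 17, 56277476 to 56292873), which moves between cytosol and droplets, had 9.82 to 14.2 FPKM in KO-labelled and 12.8 to 14.9 FPKM in WT fat. The groups overlapped and its log2 fold change of -0.28 ± 0.12 did not pass (adjusted p = 0.101, 95% interval -0.54 to -0.01), although without KO1 it did (-0.37, adjusted p = 0.0267).

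Because FPKM is per length, the perilipins can be set against each other. Summed, they came to 479 to 674 FPKM in KO-labelled fat and 805 to 1043 FPKM in WT, and the groups were apart. Plin4 made up 34.3% ± 1.20 of this sum in KO-labelled fat and 43.9% ± 5.73 in WT (SD, n = 4 each), with KO1 just above WT4. Plin5 made up 2.98% ± 0.893 in KO-labelled fat and 0.427% ± 0.0718 in WT, and in every KO-labelled library its share was above that of every WT library. The shares of Plin1 were 38.8% ± 3.17 and 35.7% ± 1.69 in KO-labelled and WT fat, with overlap. Those of Plin2 were 21.7% ± 3.26 in KO-labelled and 18.4% ± 7.18 in WT fat, with overlap. Put as a ratio within each library, Plin1 stood at 10.7 to 18.2 times Plin5 in KO-labelled fat and at 67.4 to 101 times Plin5 in WT. In KO-labelled fat the order by level was Plin1, Plin4, Plin2, Plin5 and Plin3, where the ranges of Plin1 and Plin4 overlapped, and so did those of Plin5 and Plin3. In WT it was Plin4, Plin1, Plin2, Plin3 and Plin5, where those of Plin4 and Plin1 overlapped. In reads not divided by length, Plin4 (42.2%) came before Plin1 (38.5%) in KO-labelled fat too.

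**Figure D4:**
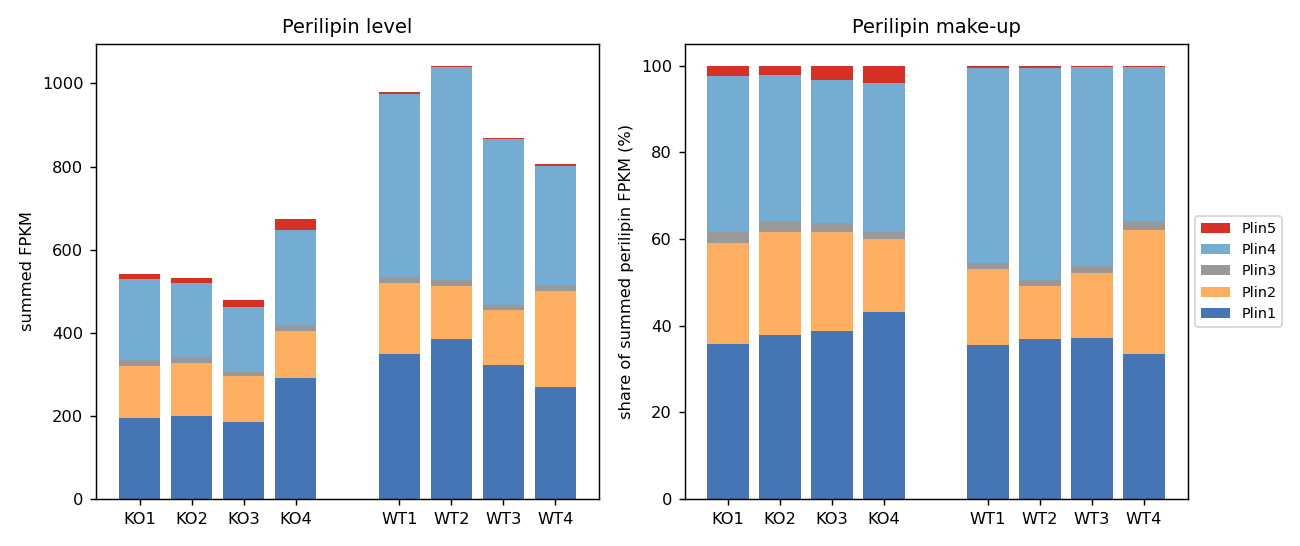
Left, FPKM of the 5 perilipin genes stacked for each library, with the KO-labelled libraries before the WT libraries. Right, the share of each gene in that sum (%). The sum is 479 to 674 FPKM in the KO-labelled libraries and 805 to 1043 FPKM in WT, and Plin5 (red) is 2.08% to 4.05% of it in the KO-labelled libraries and at most 0.528% in WT.

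The genes of droplet birth at the endoplasmic reticulum split as well. Bscl2 (ENSMUSG00000071657, chromosome 19, 8837467 to 8848683), whose loss causes generalised lipodystrophy, had 19.5, 18.7, 22.2 and 31.0 FPKM in KO1 to KO4, against 46.8, 45.5, 42.0 and 36.9 FPKM in WT1 to WT4. The groups were apart, with KO4 and WT4 the closest pair. The log2 fold change was -0.91 ± 0.16 (adjusted p = 0.00372). Without both WT1 and WT2 it was -0.80 and missed the threshold (adjusted p = 0.0540). Fitm2 (ENSMUSG00000048486, chromosome 2, 163466379 to 163472629) had 33.9, 36.0, 36.1 and 45.4 FPKM in KO1 to KO4, against 45.4, 46.2, 40.0 and 35.6 FPKM in WT1 to WT4. Its groups overlapped, and the log2 fold change of -0.14 ± 0.12 did not pass (adjusted p = 0.404, 95% interval -0.42 to 0.13). Without both KO4 and WT4 it was -0.31 and passed (adjusted p = 0.0357). With libraries scaled to a common sum its sign turned (0.13, adjusted p = 0.358). Relative to the median over all genes, Fitm2 was -0.11 under that scaling and -0.12 with the libraries as deposited. As a ratio within each library, Fitm2 stood at 1.46 to 1.92 times Bscl2 in KO-labelled fat and at 0.953 to 1.01 times in WT. In the reference, 6.75% of the exon bases of Bscl2 are shared with Gng3 and 5.72% of those of Fitm2 with a noncoding gene, 2310001K24Rik, each on the other strand. A further 4.05% of those of Bscl2 are shared with AC129217.1, a protein-coding gene on the same strand that is not analysed here. Whether reads were counted by strand is not stated, and Gng3 averaged 0.259 FPKM in KO-labelled and 0.481 FPKM in WT fat, and 2310001K24Rik averaged 1.71 and 0.842 FPKM in KO-labelled and WT fat.

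Hilpda (ENSMUSG00000043421, chromosome 6, 29272488 to 29275446) encodes a small droplet protein that inhibits the lipase ATGL and is induced by hypoxia and by fatty acids. It had 5.97, 7.92, 6.21 and 8.50 FPKM in KO1 to KO4, against 10.3, 9.61, 8.15 and 8.81 FPKM in WT1 to WT4. The groups overlapped between KO4 and WT3, and the log2 fold change of -0.36 ± 0.13 did not pass (adjusted p = 0.0618, 95% interval -0.64 to -0.07). It passed without KO4 (-0.44, adjusted p = 0.0318), without both KO4 and WT4 (-0.46, adjusted p = 0.0384) and with array weights (-0.40, adjusted p = 0.0298). Of 18 tested genes of a list of hypoxia targets, 4 rose and 5 fell, with a median log2 fold change of 0.03 (0.29 with libraries scaled to a common sum). Ndrg1 rose (1.12 ± 0.09), while the prolyl hydroxylase gene Egln1 (-0.69 ± 0.08), the glycolytic regulator Pfkfb3 (-1.53 ± 0.18), Ldha (-0.98 ± 0.12) and Aldoa (-0.59 ± 0.15), both of glycolysis, fell. Hif1a itself did not pass (-0.29 ± 0.11, adjusted p = 0.0869).

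The libraries KO4 and WT4 marked the edges of their groups across the droplet genes. KO4 was the highest KO-labelled library for 8 of the 10 genes, all but Plin2 and Plin3. WT4 was the lowest WT library for 7, all but Plin2, Plin3 and Hilpda, and the highest for Plin2. Without both libraries, 7 droplet genes were lower and 1 higher, where 2700 of all 14420 genes tested were lower and 2017 higher. Without both WT1 and WT2, 3 droplet genes were lower and 1 higher, where 1029 of all 14419 genes tested were lower and 729 higher. In bulk tissue, fewer adipocytes and less RNA per adipocyte cannot be told apart. Of 16 adipocyte markers 10 fell and none rose, with a median log2 fold change of -0.67. They included Lep (-3.34 ± 0.16), the adrenergic receptor Adrb3 (-3.46 ± 0.27), the thyrotropin receptor Tshr (-1.37 ± 0.15), Gpd1 (-1.03 ± 0.18) and Adipoq (-0.98 ± 0.18). The fatty acid transporter Cd36, the marker of highest level, did not pass (0.02 ± 0.13, adjusted p = 0.941), nor did the glycerol channel Aqp7 (-0.08 ± 0.14, adjusted p = 0.713) and Lgals12, which encodes a lectin of lipid droplets (0.31 ± 0.17, adjusted p = 0.193). Of 8 endothelial markers, 6 fell and none rose. The part of these markers in the results of the droplet genes was not tested.

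**Figure D5:**
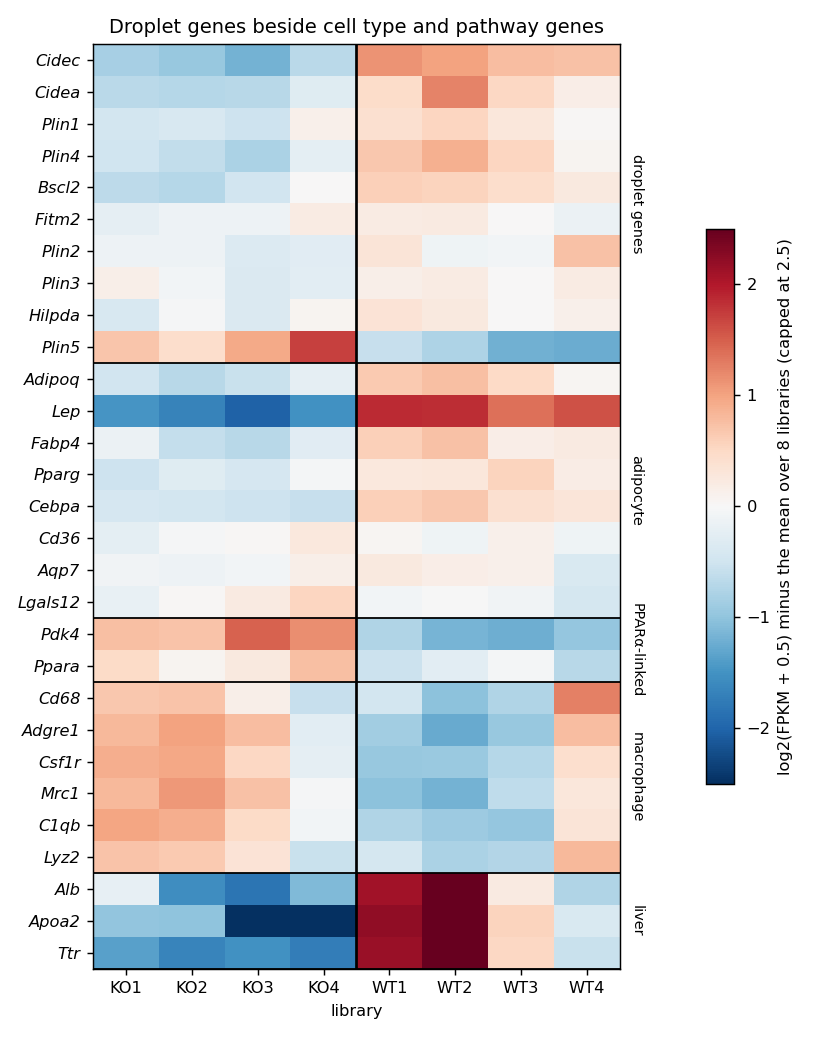
Log2(FPKM + 0.5) minus the mean over the 8 libraries (colour, capped at 2.5) for the droplet genes and for genes picked from the marker lists after their values were seen; rows are genes, columns are libraries, KO-labelled before WT. Cidec, Cidea, Plin4 and Bscl2 are above their mean in all WT libraries, Plin5 and Pdk4 in all KO-labelled libraries, and KO4 and WT4 differ from their groups in the macrophage genes.

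Genes that act with the coat proteins were read from the same fit. Of 8 lipases and partners, 7 fell and none rose, with a median log2 fold change of -0.78 beside -0.02 for all genes. They included the adipose triglyceride lipase gene Pnpla2 (-0.51 ± 0.13, adjusted p = 0.0191), its cofactor Abhd5, which perilipin 1 and perilipin 5 bind (-0.61 ± 0.10, adjusted p = 0.00257), and its inhibitor G0s2 (-1.87 ± 0.22, adjusted p = 0.000602). G0s2 averaged 51.8 ± 13.2 FPKM in KO-labelled and 191 ± 48.8 FPKM in WT fat. Pnpla3, a relative of Pnpla2, fell by 3.43, Mgll, the lipase of monoglycerides, by 1.42, and Fabp4, a fatty acid carrier, by 0.86 on the log2 scale. Of 42 tested genes of a list of 44 other droplet-associated genes, 13 fell (31.0%) and 6 rose (14.3%), with a median of -0.15 (0.13 with libraries scaled to a common sum). Falls were led by Nsdhl (-2.19 ± 0.13) and Lss (-1.78 ± 0.11), enzymes of sterol synthesis that can sit on droplets, and by Dgat2, which makes triglyceride at the droplet surface. Dgat2 averaged 130.1 ± 38.0 FPKM in KO-labelled and 739 ± 128 FPKM in WT fat (-2.53 ± 0.22). The 6 that rose were Mettl7a1 (0.87 ± 0.10), Ces1d (0.99 ± 0.24), Lpcat2 (0.86 ± 0.25), Spg20 (0.46 ± 0.10), Hsd17b11 (0.45 ± 0.07) and Tmem159 (0.44 ± 0.09), the last also known as LDAF1, the partner of seipin. Tmem159 averaged 12.6 ± 0.555 FPKM in KO-labelled and 9.16 ± 1.03 FPKM in WT fat, while its partner Bscl2 was lower. Ces1d has close paralogs, with which it can share reads.

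Of 18 regulators, 3 rose and 5 fell, with a median of -0.18 (0.073 with libraries scaled to a common sum). Pparg, the receptor that drives Plin1 and Cidec in adipocytes, fell (-0.65 ± 0.12, adjusted p = 0.00579), as did the adipogenic factor Cebpa (-0.99 ± 0.11) and Epas1 (-0.49 ± 0.11). Ppara, the receptor that drives fat oxidation in fasting, rose (0.77 ± 0.19, adjusted p = 0.0158) at a low level, with 2.0 ± 0.525 FPKM in KO-labelled and 0.966 ± 0.294 FPKM in WT fat. The list of its targets did not move one way: of 16 tested, 4 rose and 4 fell, with a median of -0.28 (-0.064 with libraries scaled to a common sum). Pdk4 (2.05 ± 0.18), which restrains glucose oxidation, and Vnn1 (1.24 ± 0.19) rose, and Angptl4, the member of highest level, did not pass (-0.37 ± 0.16, adjusted p = 0.114).

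Profiles most like those of the strongest called genes in each direction were sought among 3369 genes with a mean of at least 10 FPKM, as the smallest root mean square difference of log2 values centred over the 8 libraries. For Cidec these were Bcar3 (difference 0.0896), Tecr (0.129), an enzyme of fatty acid elongation, and Ppp2r5b (0.134). Bcar3 averaged 6.51 ± 1.21 FPKM in KO-labelled and 25.6 ± 4.25 FPKM in WT fat. For Plin5 they were Chchd10 (0.289), which encodes a mitochondrial protein, Pdk4 (0.336) and the ferroxidase gene Cp (0.379). Chchd10 averaged 30.0 ± 8.51 FPKM in KO-labelled and 5.92 ± 2.09 FPKM in WT fat, and Pdk4 78.4 ± 20.2 FPKM in KO-labelled and 18.2 ± 2.89 FPKM in WT fat. These likenesses describe 8 libraries of 2 groups, so genes with a similar group difference come first.

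The level of all genes depended on scaling. Of the reads that FPKM was divided by, 62.6% to 66.1% lay in listed genes in the KO-labelled libraries and 74.1% to 78.7% in WT. With each library scaled to sum to 1000000, the median over all genes was 0.24 in place of -0.02. Relative to that median, Cidec stood at -1.78 in place of -1.80, Plin4 at -1.04 in place of -1.05, Bscl2 at -0.89 under both, Plin1 at -0.58 in place of -0.59 and Plin5 at 2.04 in place of 1.92, while Cidea, the rarest, stood at -1.83 in place of -1.17. With quantile normalization the median over all genes was near 0. The log2 fold changes were then smaller for Cidec (-1.49), Plin4 (-0.77) and Bscl2 (-0.72), which kept their calls. That of Plin1 was smaller as well (-0.36) and missed the threshold (adjusted p = 0.1002). Scaled to a sum of 1000000 and not set against the median, Plin1 was -0.34 and missed the threshold (adjusted p = 0.0963). Cidec (-1.55), Cidea (-1.60), Plin4 (-0.81), Bscl2 (-0.65) and Plin5 (2.27) kept their calls under that scaling.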

How the data were processed

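RNA of 8 libraries, 4 KO-labelled and 4 WT, was sequenced after poly(A) capture, per the labels' protocols. HISAT2 2.0.5, featureCounts and build mm10 are named, without roles, in the submitters' processing notes. Neither annotation nor strand setting is stated. Values are FPKM, deposited in a single table. Of its 28295 gene IDs, 99.9% matched a GENCODE M21 symbol, and coordinates are from that annotation (GRCm38, 1-based).

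Reads were recovered from the FPKM steps with GENCODE exon lengths. Of values between 0.5 and 200 reads, 97.9% lay within 0.02 of a whole number, so depth is known, and it covers counting error only. The main test, two-sided, was limma-trend with robust moderation (limma 3.58.1 in R 4.3.3) on log2(FPKM + 0.5) with no covariate. P-values were adjusted by Benjamini-Hochberg over the 14400 genes with a mean of at least 0.5 FPKM, and a gene was called under 0.05. The members, gene lists and tests were chosen with earlier results of these data known. Gene lists are described by counts and medians only. From each list the text names up to 4 called genes with the smallest adjusted p and the tested gene of highest level, and genes chosen for their bearing on a droplet gene; some genes are not reported here. Further genes of the lists, the genes around Plin4, the ratios within libraries and the overlapping genes were chosen after their values were seen. Replicate numbers were not treated as pairs in the main test. Other pseudocounts, filters, scalings, weights, a replicate block and leaving out libraries were tried, and voom on the recovered reads was added after the data were seen. Tables were made in Python 3.11.15 with pandas 2.3.3 and numpy 2.4.6, permutations with scipy 1.17.1.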

Additional observations from a re-analysis of the deposited data

Results flagged for a closer look

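Plin1 stood at 291 FPKM in KO4, the highest of its group and separated from the other 3 KO-labelled libraries by more than Dixon's 95% limit for 4 values. Cidea stood at 0.486 FPKM in KO4, also beyond that limit, at 14 reads. These were 2 of 22 groups of 4 examined, and chance alone flags about 1 in 20. Without KO4 the log2 fold change was -0.76 for Plin1 (adjusted p = 0.00579) and -1.29 for Cidea (adjusted p = 0.00799). KO4 also had the highest summed adipocyte markers of its group (5164 FPKM against 3755 to 3994 FPKM) and the lowest macrophage markers (733 FPKM against 1228 to 1699 FPKM).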

How the results depend on the processing

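Cidec, Cidea, Plin4 and Plin5 kept direction and call under every alternative that could be fitted, 22 for each (21 for Cidea, which a mean of 1 FPKM removed). The size of the fall of Cidea was not settled, with log2 fold changes of -2.07 to -0.85 over these alternatives. Bscl2 lost its call in 1 and Plin1 in 11 of 22. The count of lower droplet genes was 5, 4 to 6 when 1 library was left out, 4 at an adjusted p under 0.01 and 3 without both WT1 and WT2. Over all genes, 1689 were higher and 2683 lower. These counts were 1100 to 1938 and 1862 to 2794 when 1 library was left out, 729 and 1029 without both WT1 and WT2, 759 and 1334 at an adjusted p under 0.01, 4226 and 1190 scaled to a sum of 1000000, and 4347 and 1250 by voom on recovered reads scaled to reads in listed genes. Fitm2 turned positive scaled to that sum (0.13), with quantile normalization (0.054) and by that voom fit (0.11). Cul3 was 0.37 scaled to the sum (adjusted p = 0.0477) and 0.35 by that voom fit (adjusted p = 0.0308). Relative to the median over all genes, Fitm2 was -0.11 scaled to the sum and by that voom fit, and 0.059 with quantile normalization. Cul3 was 0.13 relative to it, scaled to the sum and by that voom fit.

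With the replicate block, 1113 genes were higher and 1995 lower, and Plin1 missed the threshold (adjusted p = 0.0884). Deviations of same-numbered libraries correlated at -0.37 to 0.23 across genes, and those of differently numbered libraries at -0.29 to 0.25. The numbers thus showed no pairing, but 4 same-numbered pairs cannot exclude one.

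List medians moved with scaling, and so did the median over all genes. The latter was -0.02 in the main fit, 0.24 scaled to the sum, -0.0053 with quantile normalization and 0.22 by that voom fit. Scaled to the sum, with quantile normalization and by that voom fit, the droplet-associated genes were at 0.13, -0.021 and 0.10, the lipase partners at -0.50, -0.50 and -0.53 and the regulators at 0.073, -0.070 and 0.050. The PPARα targets were at -0.064, -0.11 and -0.088. Scaled to the sum and by voom, the hypoxia targets were at 0.29 and 0.26. With a mean of at least 1 FPKM the regulators were at -0.29. In reads not divided by length, the perilipin shares in KO-labelled and WT fat were 42.2% and 51.5% for Plin4 and 1.32% and 0.181% for Plin5. In KO-labelled fat Plin1 was then 38.5%, below Plin4, and Plin2 was 16.3%. In WT fat Plin1 was 33.8% and Plin3 1.20%. The planned count-model tests were not run, since the deposited values are not counts. Depth limits Cidea, with 7 to 14 reads in the KO-labelled libraries. The cause of the shifts in list medians and perilipin shares was not tested.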

Other observations

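Relatives of the droplet genes that are rare in this tissue were also listed. Cideb, the CIDE gene of liver, was at 0 to 0.190 FPKM in the KO-labelled libraries and at 0 to 0.252 FPKM in WT, and was under the filter. Fitm1, the FIT gene of skeletal muscle and heart, was at 0.0416 to 0.459 FPKM in the KO-labelled libraries and at 0.0419 to 0.242 FPKM in WT1, WT3 and WT4, but at 3.10 FPKM in WT2, and it did not pass (-0.67 ± 0.56, adjusted p = 0.397). WT2 was also the library with the highest hepatocyte markers, of which Ttr, Apoa2, Fabp1 and Ahsg were called lower among 10, Ttr and Ahsg passing the filter only through the WT libraries. Of 8 markers of striated muscle, 3 passed the filter and 2 of these fell (Acta1 and Myl1), with a summed level of 11.9 to 15.7 FPKM in KO-labelled fat and 19.7 to 50.4 FPKM in WT, highest in WT1. Clstn3, an adipocyte isoform of which is known in mouse to act on CIDE proteins, fell to 1.92 ± 0.574 FPKM in KO-labelled fat, against 6.47 ± 2.42 FPKM in WT (-1.49 ± 0.26, adjusted p = 0.00408), and a value per gene does not separate its isoforms.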
